A study of Mus musculus with 6 samples.

Results

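Potassium channel genes of the mouse hippocampus were measured by RNA-seq in 6 libraries, 3 of the CerM treatment and 3 of vehicle. Members were the genes whose symbol consists of Kcn, letters and a closing number, which covers voltage-gated (Kv), inward rectifier (Kir), tandem-pore (K2P) and calcium- or sodium-activated channels with their auxiliary subunits. Kcnj8, Kcnj13 and Kcne2 were left out by the rule, as were antisense transcripts. The rule found 89 of the 55414 genes in the table. The labels give the tissue (hippocampus) and the treatment, CerM or vehicle. They do not spell out CerM, and strain, age, sex, dose and duration are not given in the sources used here. The titles call the samples biological replicates but do not say whether each came from a separate mouse, so the tests measure no more than the spread among these 6, which may be technical.

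Potassium channels let potassium leave or enter the cell and so set the resting potential, the shape of the action potential and the firing rate of neurons. Kv channels open on depolarisation, Kir channels pass current near the resting potential, and K2P channels carry background leak. BK and SK channels couple calcium entry to repolarisation, and auxiliary subunits change the gating and surface delivery of the pore proteins. In the hippocampus, Kv4 channels with their KChIP partners carry the dendritic A-type current of pyramidal cells, Kv7 channels carry the M-current, and Kir4.1 of astrocytes takes up extracellular potassium.

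The pore-forming members share a signature that the rule did not use, the selectivity filter, in which a glycine, an aromatic residue and a glycine follow shortly after a threonine or serine. Coding sequences were read from the GENCODE M21 transcripts (GRCm38, matched by Ensembl identifier for all 89 members, longest coding transcript of each). The reading frame was searched, on the coding strand, for the codon for threonine or serine (ACN, TCN, AGT or AGC), any codon, GGN, a codon for tyrosine (TAT or TAC) or phenylalanine (TTT or TTC), and GGN. All 75 pore-type and modifier members held it and none of the 14 auxiliary members did, where 2.65% of 21614 coding genes hold it. The phenylalanine form stood in all 8 members of the Kv10 to Kv12 group (the Kcnh genes), in all 3 of the Kcnt and Kcnu group, in Kcnj11 and in 11 K2P genes, 23 members in all. Of the 14 K2P genes, whose proteins carry a pair of pore loops, 11 held the signature at 2 or more places. These sequences are shown because they mark which members line a pore and how the classes differ in it. Capitals mark the 5 signature codons.
Kcnc1: atgacgACACTGGGCTATGGAgacatgtat
Kcnh3: ctcaccAGTGTGGGCTTCGGCaacgtgtcc
Kcnf1: atgaccACAGTGGGCTATGGTgacatctac
Kcnj3: gaggccACCATCGGCTATGGCtaccgctac
Kcnj10: cagaccACCATCGGCTATGGCttccgctac
Kcnk2, second pore: ctgacgACCATTGGATTTGGAgactacgtg
Kcnma1: atgtctACAGTGGGTTATGGGgacgtttat
Kcnn1: ttcttgTCCATTGGCTATGGAgacatggtg
Kcnt1: ttctcaACTGTGGGCTTCGGTgatgtgacg

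On GRCm38 the Kcnc1 stretch lies in exon 2 at chr7:46427967-46427996 (plus strand). Kcnh3 has it in exon 8 at chr15:99232923-99232952 (plus) and Kcnf1 in exon 1 at chr12:17175052-17175081 (minus). The Kir stretches are in exon 1 of Kcnj3 at chr2:55437621-55437650 (plus) and exon 2 of Kcnj10 at chr1:172369296-172369325 (plus). Kcnk2 has its second stretch in exon 5 at chr1:189256572-189256601 (minus). Kcnma1 has it in exon 8 at chr14:23528404-23528433 (minus), Kcnn1 in exon 4 at chr8:70850648-70850677 (minus) and Kcnt1 in exon 11 at chr2:25894361-25894390 (plus). The deposited values were made on GRCm39, so these positions belong to the sequences and not to the measurements.

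The codon after the signature differed between families, and not always along the borders of the classes. Over the 86 signatures of all members, an aspartate codon (GAT or GAC) followed 51 (59.3%), beside 6.33% of 616 signatures in other coding genes. It followed all 22 signatures of the Kv1, Kv2, Kv3, Kv4 and Kv7 genes and all 10 of the modifiers. All 8 of the calcium- and sodium-activated class, to which Kcnu1 belongs by gene family, had it too. It followed none of the 8 in the Kcnh genes and none of the 13 in the Kir genes. In K2P genes it followed 11 of 25, as in the second stretch of Kcnk2. A match in these letters is a description of the sequence, not a test of the channel's selectivity.

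Levels are in TPM, transcript abundance per length and library total, so genes can be compared with each other. Of the 89 members, 3 (Kcnj1, Kcnk15 and Kcnk16) were listed at 0 in all 6 libraries, 19 had a mean above 0 and under 1 TPM, 24 from 1 to under 10, 31 from 10 to under 50 and 12 had 50 TPM or more. The 67 members with a mean of at least 1 TPM were tested. The 10 highest held 53.8% of the TPM of the class. TPM keeps no sequencing depth, so the reads behind a value are unknown. The spread over 3 libraries is the only measure of precision, and in tissue RNA fewer cells of a type and less RNA per cell cannot be told apart.

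Markers of CA1, CA3 and dentate granule cells were listed above 0 in every library, as were those of neocortex, thalamus and striatum, so their presence alone does not tell the regions apart. By its markers vehicle replicate 1 stood apart from the other 5 libraries, high for neocortex and low for dentate granule cells and oligodendrocytes. Most of the printed log2 fold changes that it moved are also given without it. CerM replicates 1 and 3 and vehicle replicate 3 held choroid plexus transcripts, and CerM replicate 3 held adipocyte markers, at a summed 663 TPM against 0.53 to 1.53 TPM in the other libraries.

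No potassium channel gene was called in CerM hippocampus against vehicle hippocampus, and the typical fold change was of the size seen over all tested genes. With limma on log2(TPM + 1) and Benjamini-Hochberg adjustment over all 14916 tested genes, 0 of the 67 members were called at an adjusted p below 0.05 (0% of all tested genes). At an unadjusted p below 0.05 there was 1 member, Kcnj2, where 2.7% of all tested genes were (1.07% higher and 1.62% lower in CerM). Kcnj2 was lower. Log2 fold changes compare TPM + 1 of CerM with that of vehicle, so the change of a low gene is understated. They lay above 0 for 34 members and below 0 for 33, with a median of 0.01 beside 0.03 over all tested genes. The median size of the fold change, sign aside, was 0.109 for the members and 0.113 over all tested genes.

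Taken gene by gene and without adjustment for the number of genes, the fits leave limited room for large differences in most of these genes. That room is measured against the spread among these libraries alone, which may be technical. The 95% confidence interval stayed inside 2-fold, in TPM + 1, for 63 of the 67 members (94%, beside 90.2% of all tested genes) and inside 1.5-fold for 42. The 4 exceptions were Kcna1, Kcng2, Kcnh4 and Kcnmb2, named after their values were seen. The smallest adjusted p among the members was 0.989.

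Libraries of CerM and vehicle did not overlap in 5 of the 67 members (7.46%), beside 7.3% of all tested genes, so the share is that of the background. Kcnj2, Kcnj16, Kcnip3 and Kcnmb4 were lower in every CerM library (4.04% of all tested genes were so), and Kcnk10 was higher in each (3.26%). Leaving out a library gave 9, 14 and 8 such members without CerM replicates 1, 2 and 3, and 10, 9 and 12 without vehicle replicates 1, 2 and 3. The share of all tested genes was then 18.8%, 18.9%, 13.5%, 12.6%, 13.2% and 23.8% in that order.

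**Figure D1:**
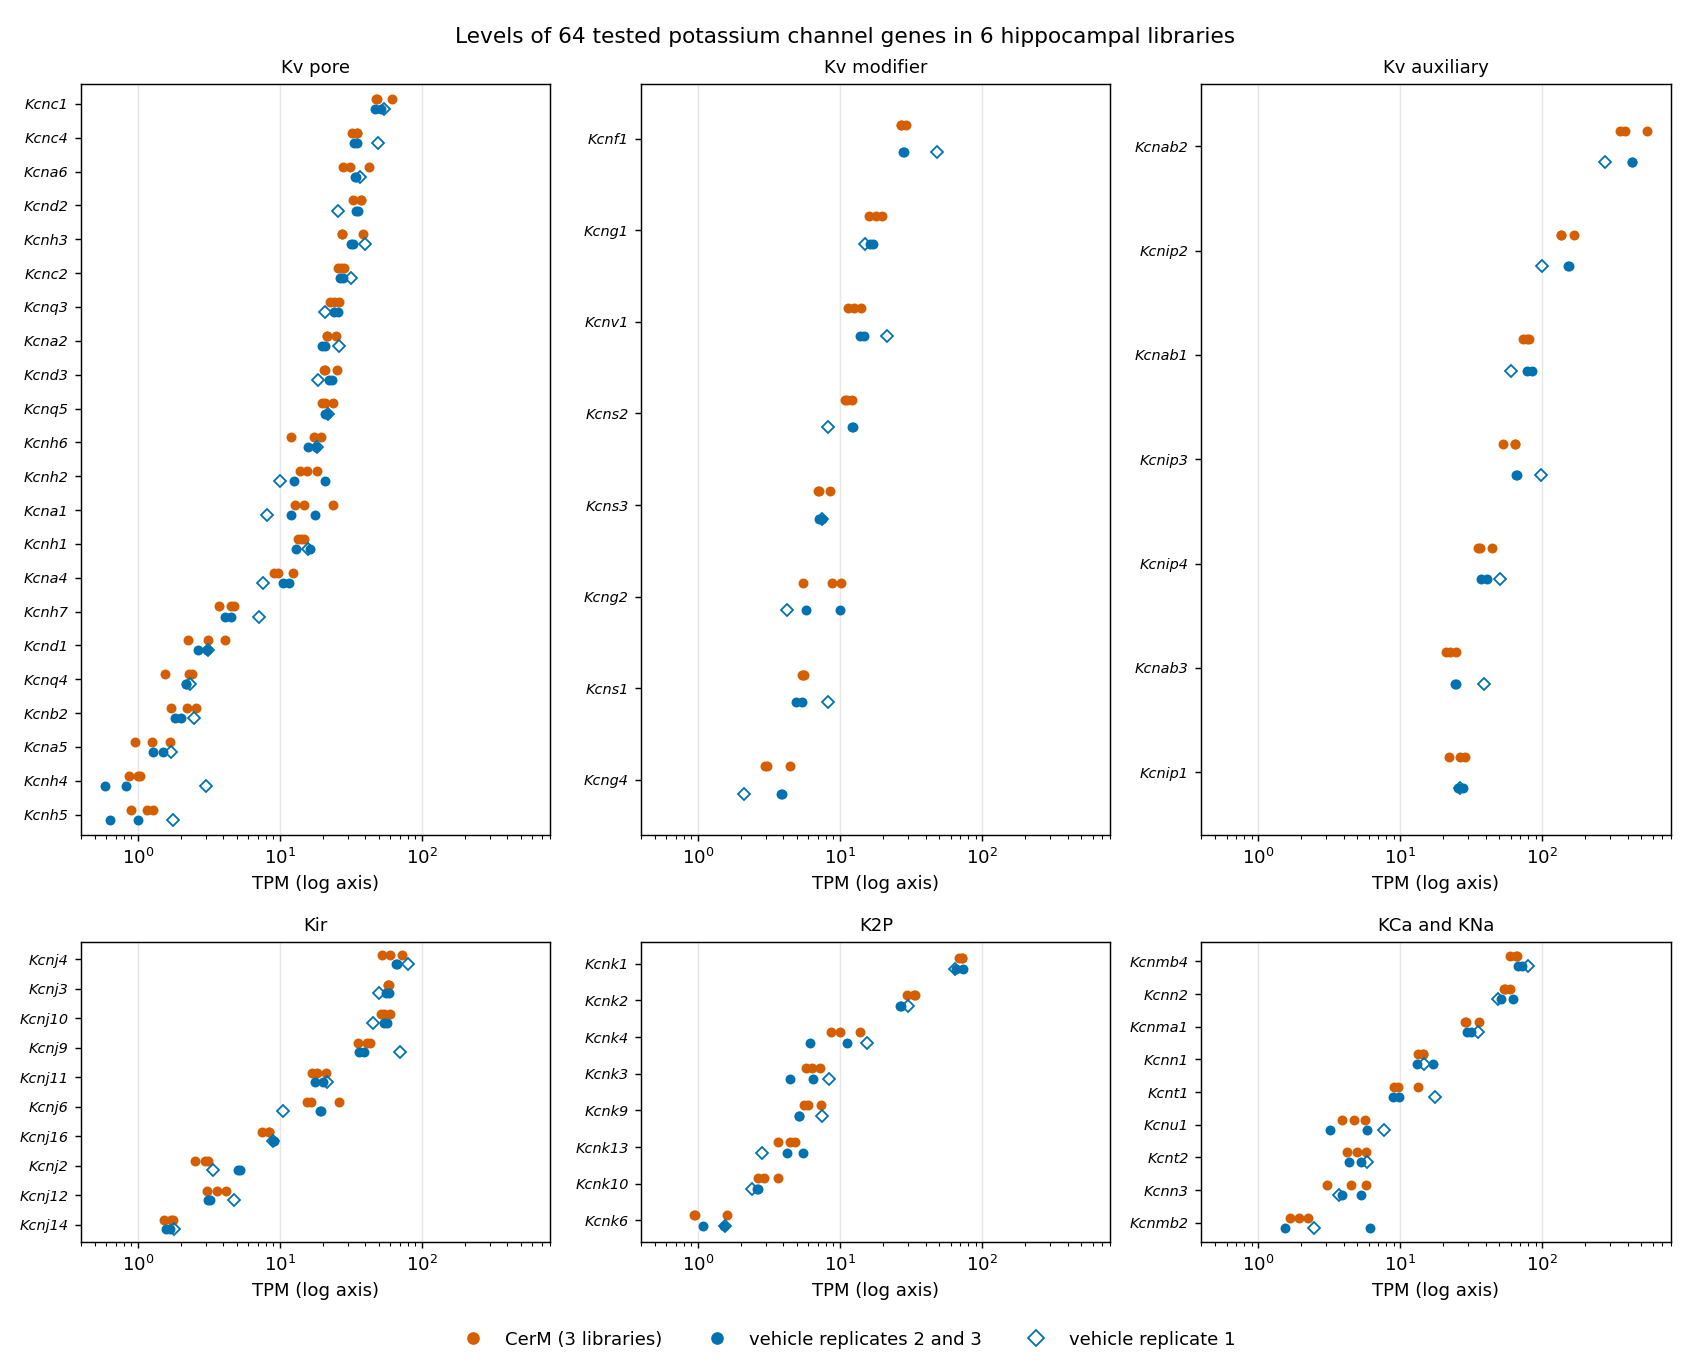
Level of 64 of the 67 tested members in TPM (log axis) in the 3 CerM libraries (orange, upper row of each gene), vehicle replicates 2 and 3 (filled blue) and vehicle replicate 1 (open diamond), in panels by class and ordered by mean level. Kcnab2 is the highest at 403 TPM over the 6 libraries, and the open diamonds often lie outside the other 5 points.

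Voltage-gated pore genes made up 27.7% of the TPM of all members. Subunits of the M-channel, a Kv7 channel that restrains repetitive firing, differed by less than their spread, Kcnq3 with a mean of 24.3 ± 1.77 TPM in CerM libraries and 23.4 ± 2.48 TPM in vehicle libraries (SD, n = 3 each, as for all such values) and Kcnq5 at 21.5 ± 2.08 and 21.3 ± 0.43.

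Kv3 channels close fast and let neurons fire at high rates. Of their genes, Kcnc1 had 52.4 ± 8.12 TPM in CerM and 51.0 ± 3.65 in vehicle, a log2 fold change of 0.03 (−0.27 to 0.33, the 95% confidence interval, given in this form throughout). Kcnc2, known for parvalbumin interneurons, had 27.0 ± 1.37 and 28.6 ± 2.59 TPM.

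Among the tested Kv1 to Kv4 genes with slower or A-type currents, Kcna1 had the widest spread by coefficient of variation (35.8%). This delayed rectifier gene of axons had 12.8, 23.5 and 14.8 TPM in the CerM libraries, against 8.11, 11.95 and 17.7 TPM in the vehicle libraries. Its log2 fold change of 0.42 (−0.29 to 1.14) was the largest increase of any member and did not pass the test. Without vehicle replicate 1 it was 0.17, and without vehicle replicate 3 it was 0.69. Its axonal partner Kcna2 had 22.7 ± 1.97 TPM in CerM and 22.3 ± 3.43 in vehicle. Kcnd2, the pore of the dendritic A-type channel, had 37.1, 37.1 and 32.9 TPM in CerM, against 25.8, 35.3 and 34.5 TPM in vehicle, where again vehicle replicate 1 lay below the rest (log2 fold change 0.17, −0.16 to 0.50, and 0.03 without that library).

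The EAG, ERG and ELK genes (Kcnh) lay between 0.36 and 32.9 TPM as means over the 6 libraries, and 5 of the 7 tested had a fold change below 0. Kcnh7, an ERG gene, had 4.76, 4.55 and 3.72 TPM in CerM, against 7.18, 4.10 and 4.56 in vehicle. The vehicle mean rested on replicate 1, and the log2 fold change of −0.21 (−0.70 to 0.29) was −0.000343 without it. Over the 25 tested Kv pore genes 14 lay above 0, with a median of 0.01, and no member had groups that did not overlap. Below the minimum of 1 TPM were Kcna3, Kcna7, Kcna10, Kcnh8 and Kcnq1, of which Kcna3 was the highest with a mean of 0.82 TPM.

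Electrically silent Kv subunits, which form no channel alone but alter Kv2 channels, held 4.78% of the TPM. Kcnf1 led with 27.0, 29.2 and 26.8 TPM in CerM, against 48.1, 27.9 and 28.3 TPM in vehicle. Vehicle replicate 1 stood apart and the other 5 libraries lay between 26.8 and 29.2 TPM. The log2 fold change was −0.27 (−0.76 to 0.21) with all libraries and −0.02 without vehicle replicate 1. Kcnv1, which had the smallest p of the class, had 14.1, 12.5 and 11.4 TPM in CerM, against 21.3, 14.8 and 13.8 TPM in vehicle. The groups overlapped at 13.8 and 14.1 TPM, and the log2 fold change was −0.35 ± 0.18 (SE; limma adjusted p = 0.989) and −0.17 without vehicle replicate 1.

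Kcng1, the second of the class by level, averaged 17.8 ± 1.86 TPM in CerM and 16.1 ± 0.92 TPM in vehicle. Of the 8 tested modifiers 5 lay above 0, with a median of 0.05. Kcng3 and Kcnv2 were under the minimum, at means of 0.24 and 0.01 TPM.

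Auxiliary subunits of Kv channels were the most abundant class, with 38% of the TPM of all members from 10 genes. Kcnab2, a cytosolic beta subunit of Kv1 channels, had 354, 548 and 385 TPM in CerM, against 277, 426 and 426 TPM in vehicle. CerM replicate 2 was the highest and vehicle replicate 1 the lowest library, and the log2 fold change was 0.19 (−0.32 to 0.70) and −0.02 without vehicle replicate 1. Kcnip2 (KChIP2, a calcium-binding partner of Kv4) had 136, 167 and 136 TPM in CerM, against 99.0, 151 and 155 TPM in vehicle. Kcnab1, another beta subunit, had 77.5 ± 3.52 and 74.4 ± 12.8 TPM. For each of these 3 genes vehicle replicate 1 was the lowest library, and without it the log2 fold changes of Kcnip2 and Kcnab1 were both −0.07, against 0.14 and 0.07 with all libraries.

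Kcnip3 and Kcnab3 ran the other way in the same library. Kcnip3 (KChIP3, also called DREAM) had 53.3, 64.3 and 64.0 TPM in CerM, against 98.8, 65.9 and 66.5 TPM in vehicle. Every CerM library was below every vehicle library, but the gap to vehicle replicates 2 and 3 was small, and the log2 fold change of −0.32 (−0.73 to 0.08) was −0.13 without vehicle replicate 1. Kcnab3 had 21.1, 24.7 and 22.6 TPM in CerM, against 39.2, 24.8 and 24.4 TPM in vehicle, and overlapped, with a log2 fold change of −0.33 that was −0.11 without vehicle replicate 1. Kcnip4 had 38.5 ± 4.79 and 42.8 ± 6.67 TPM and Kcnip1, found in interneurons, 25.8 ± 3.30 and 26.5 ± 0.98. Of the 7 tested genes 4 lay below 0 (median −0.04). Without vehicle replicate 1 all 7 lay below 0 (median −0.07), and without CerM replicate 3 the median was 0.05. The small KCNE subunits Kcne1, Kcne3 and Kcne4 were under 1 TPM, with means of 0.06, 0.62 and 0.80.

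Auxiliary subunits stood against pore-type members at a ratio of summed TPM of 0.699, 0.755 and 0.7 in the CerM libraries, against 0.599, 0.767 and 0.737 in the vehicle libraries. Vehicle replicate 1 had the lowest ratio, and the other 5 lay between 0.699 and 0.767.

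Kir genes held 13.4% of the TPM. Kcnj4 (Kir2.3, a strong rectifier) had 52.4, 72.8 and 59.5 TPM in CerM, against 79.3, 66.5 and 65.3 TPM in vehicle, with a log2 fold change of −0.20 (−0.53 to 0.14). It was −0.11 without vehicle replicate 1, −0.09 without CerM replicate 1 and −0.32 without CerM replicate 2. The G-protein-gated subunits (GIRK), through which GABA-B and other receptors hyperpolarise neurons, differed in how steady they were. Kcnj3 (GIRK1) had 57.8, 57.5 and 58.6 TPM in CerM, against 49.9, 59.0 and 56.3 TPM in vehicle, a coefficient of variation of 5.94% over the 6 libraries. Kcnj6 (GIRK2) had 15.5, 26.1 and 16.6 TPM in CerM, against 10.6, 19.3 and 19.6 TPM in vehicle. Kcnj9 (GIRK3) had 35.5, 43.0 and 40.9 TPM in CerM, against 70.0, 39.3 and 36.4 TPM in vehicle. In vehicle replicate 1 Kcnj6 was thus at its lowest and Kcnj9 at its highest. The log2 fold change was 0.24 for Kcnj6 and −0.22 for Kcnj9 with all libraries, and −0.04 and 0.07 without that one.

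Kcnj2 had the smallest p of all members. The gene encodes Kir2.1, a strong inward rectifier of neurons and of blood vessel endothelium. It had 2.54, 3.10 and 2.97 TPM in CerM, against 3.39, 5.04 and 5.22 TPM in vehicle, so that all CerM libraries lay below all vehicle libraries. The log2 fold change was −0.51 ± 0.19 (SE), with a confidence interval of −0.95 to −0.06, a limma p of 0.0304 before adjustment and 0.989 after it. Leaving out each library in turn gave −0.67 to −0.42, and it lay closest to 0 without vehicle replicate 3. The 6 endothelial markers, none listed at 0 in any library, summed to 167 to 206 TPM in CerM and 185 to 200 TPM in vehicle and overlapped. Their part in the result was not tested.

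The glial pair differed little between the groups. Kcnj10 (Kir4.1 of astrocytes) had 51.5, 59.4 and 54.5 TPM in CerM, against 44.9, 54.1 and 56.7 TPM in vehicle. Kcnj16 (Kir5.1, which joins Kir4.1 in a mixed channel) had 7.45, 8.37 and 8.44 TPM in CerM, against 8.89, 8.89 and 9.17 TPM in vehicle. The groups of Kcnj16 did not overlap, with a log2 fold change of −0.14 (−0.41 to 0.14). The ratio of Kcnj10 to Kcnj16 was 6.92, 7.1 and 6.45 in CerM and 5.05, 6.08 and 6.18 in vehicle, and also did not overlap. This ratio was looked at after the values were seen. The 8 astrocyte markers summed to 1705 to 2146 TPM in CerM and 1653 to 1876 in vehicle, and their part was not tested. Kcnj11, the pore of the ATP-sensitive channel, had 18.8 ± 2.3 and 19.7 ± 1.96 TPM. Of the 10 tested Kir genes 7 lay below 0 (median −0.04). CerM replicate 1 was the lowest library for 7 of the 10 (70%), where it was lowest for 19.3% of all tested genes, and without it the median was 0.02. Kcnj1, Kcnj5 and Kcnj15 had means of 0.14 TPM or less.

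K2P genes held 6.44% of the TPM, and 7 of the 8 tested lay above 0 (median 0.07, and −0.01 under quantile scaling), beside 58.8% of all tested genes. Kcnk1 (TWIK1) was the steadiest member of all by coefficient of variation (5.47%), with 71.9, 68.8 and 72.1 TPM in CerM, against 64.7, 65.1 and 73.7 TPM in vehicle. Kcnk2 (TREK1, a leak channel opened by stretch, lipids and volatile anaesthetics) had 33.6, 33.4 and 29.7 TPM in CerM, against 30.2, 26.4 and 26.9 TPM in vehicle. CerM replicates 1 and 2 lay above all vehicle libraries and CerM replicate 3 fell between them. Its log2 fold change was 0.21 ± 0.11 (SE; limma adjusted p = 0.989), from 0.17 to 0.26 when each library was left out. Kcnk10 (TREK2), its close relative, had 2.94, 3.64 and 2.65 TPM in CerM, against 2.39, 2.62 and 2.63 TPM in vehicle. The groups did not overlap, by 0.02 TPM, at a log2 fold change of 0.19 (−0.20 to 0.59), which was 0.10 without CerM replicate 2 and 0.10 under quantile scaling.

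The third of that family, Kcnk4 (TRAAK), had 8.59, 13.75 and 10.02 TPM in CerM, against 15.6, 11.3 and 6.18 TPM in vehicle, the vehicle libraries spanning the whole range. Kcnk9 (TASK3) had 6.29 ± 0.92 TPM in CerM and 5.93 ± 1.33 in vehicle. Without vehicle replicate 1 the median of the 8 genes was 0.19. Summed over all 14 K2P genes the libraries had 136, 141 and 134 TPM in CerM, against 134, 124 and 127 TPM in vehicle, and the lowest CerM value (133.85) lay just above the highest vehicle value (133.84). K2P was the class with the smallest spread of its sum within CerM, 137 ± 3.74 TPM, against 128 ± 5.06 in vehicle (SD, n = 3 each). Kcnk5, Kcnk7, Kcnk12 and Kcnk18 were under 1 TPM.

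Calcium- and sodium-activated channels held 9.67% of the TPM, and 7 of the 9 tested lay below 0 (median −0.07), where 58.8% of all tested genes lay above it. Without vehicle replicate 1, 6 of the 9 changed sign, 5 lay below 0 and the median was −0.01. Kcnmb4, the neuronal beta subunit that slows BK channels, was the highest, with 66.1, 65.4 and 59.6 TPM in CerM, against 79.1, 71.7 and 67.5 TPM in vehicle. The groups did not overlap, and the log2 fold change was −0.19 (−0.42 to 0.04; limma adjusted p = 0.989) and −0.13 without vehicle replicate 1. Annotated antisense genes overlap Kcnmb4 in GENCODE M21. The BK pore gene Kcnma1 had 28.9, 35.9 and 28.6 TPM in CerM, against 35.1, 29.4 and 31.6 TPM in vehicle. Kcnmb4 thus stood above the BK pore in all 6 libraries, and Kcnmb1 and Kcnmb3 had means of 0.74 and 0.01 TPM. Kcnn4, the intermediate-conductance channel, was under the minimum at 0.18 TPM. Kcnmb2 had 1.93, 1.69 and 2.23 TPM in CerM, against 2.49, 6.12 and 1.54 TPM in vehicle, where replicate 2 alone was high.

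SK channels are opened by calcium after action potentials and limit further firing. Of their genes, Kcnn2 had 56.0 ± 2.91 TPM in CerM and 54.0 ± 7.11 in vehicle, Kcnn1 14.1 ± 0.59 and 14.97 ± 1.91, and Kcnn3 4.44 ± 1.35 and 4.32 ± 0.86. The coefficient of variation over the 6 libraries was 23.1% for Kcnn3, whose fold change took either sign with a library left out. Kcnt1, a sodium-activated channel gene, had 9.68, 13.3 and 9.02 TPM in CerM, against 17.6, 9.76 and 8.95 TPM in vehicle, with vehicle replicate 1 above the rest (log2 fold change −0.13, and 0.15 without it). Kcnu1, known from mouse sperm, was placed in this class by its gene family and not by what opens the channel. It was listed at 5.64, 4.76 and 3.91 TPM in CerM, against 7.69, 5.87 and 3.20 in vehicle, and was named after its values were seen.

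**Figure D2:**
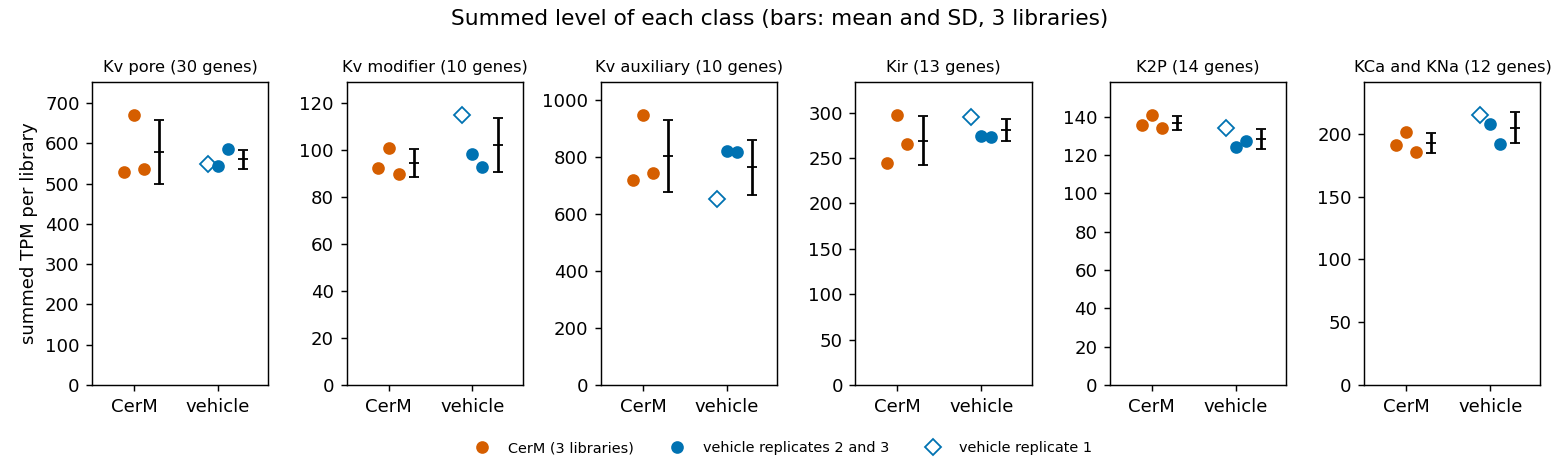
Summed TPM of each class per library (vertical axes from 0), CerM in orange and vehicle in blue with replicate 1 as an open diamond, and the mean ± SD over 3 libraries as a bar beside the points. The groups overlap in 5 of the 6 classes, and in K2P they are 0.01 TPM apart.

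The classes contrasted more in level than in their difference between treatments. Summed TPM was 579 ± 80.3 in CerM and 560 ± 23.0 in vehicle for Kv pores, 802 ± 127 and 763 ± 96.1 for Kv auxiliary subunits and 94.5 ± 5.85 and 102 ± 11.6 for modifiers (SD, n = 3 each). For Kir it was 269 ± 27.0 in CerM and 281 ± 12.1 in vehicle, and for calcium- and sodium-activated channels 193 ± 8.2 and 205 ± 12.1. Class medians of the log2 fold change ran from −0.07 to 0.07. With each library left out in turn they ran from −0.07 to 0.06 for Kv pores, −0.01 to 0.10 for modifiers, −0.08 to 0.05 for auxiliary subunits, −0.13 to 0.02 for Kir, 0.04 to 0.19 for K2P and −0.15 to −0.01 for calcium- and sodium-activated channels. The medians of K2P and of calcium- and sodium-activated channels thus kept their sign when any library was left out, and those of the other classes did not. Under quantile scaling the K2P median was −0.01. No test of these medians was made, since the members form a chosen list.

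**Figure D3:**
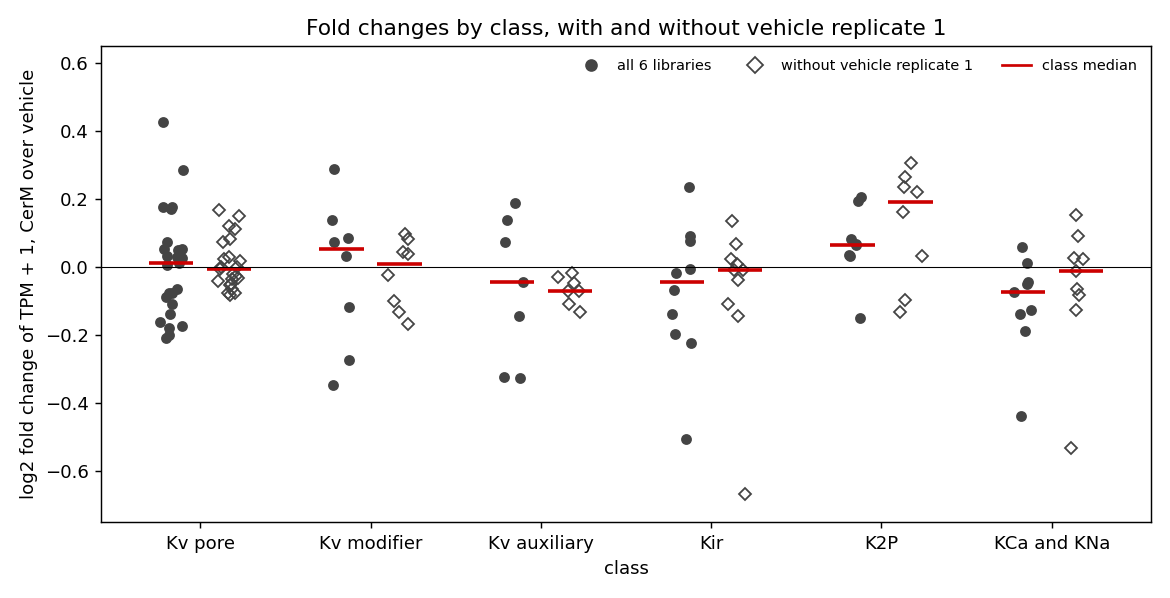
Log2 fold change of TPM + 1, CerM over vehicle, of each tested member by class, from all 6 libraries (filled) and without vehicle replicate 1 (open diamonds), with class medians in red. Without that library the median size of the fold change is smaller in the first 4 classes and larger in calcium- and sodium-activated channels and in K2P, where the class median moves to 0.19.

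Vehicle replicate 1 differed most from the other libraries in its potassium channel genes, and its share of members at the low end was that of all tested genes. It was the highest library for 27 of the 67 tested members (40.3%, beside 16.9% of all tested genes) and the lowest for 22 (32.8%, beside 32.6%). Either was so for 73.1% of members and 49.5% of all tested genes. CerM replicate 2 was at an extreme for 40.3% of members and 49.4% of all tested genes, and the other 4 libraries for 16.4% to 28.4% of members and 20.1% to 27.3% of all tested genes. The deviation from the mean of the other 5 libraries on the log2(TPM + 1) scale exceeded 0.5 for 21 members (31.3%) in vehicle replicate 1, beside 16.1% of all tested genes, with 12 members higher and 9 lower (774 and 1622 of the 14916 tested genes). In the other libraries this was so for 0% to 10.4% of the members and 6.17% to 11.3% of all tested genes. Across the 67 members, where genes are no replicates, the Pearson correlation of log2(TPM + 1) was 0.954 to 0.97 between vehicle replicate 1 and the other libraries and 0.985 to 0.993 among those. Over all tested genes these ranges were 0.958 to 0.976 and 0.962 to 0.978 and largely overlapped.

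Ratios between members of a family, for pairs chosen after the values were seen, were taken to set such members side by side. The ratio of Kcnip3 to Kcnip2 was 0.392, 0.386 and 0.47 in CerM, against 0.997, 0.437 and 0.429 in vehicle replicates 1 to 3. The ratio of Kcnab3 to Kcnab2 was 0.0596, 0.0452 and 0.0588 in CerM, against 0.141, 0.0583 and 0.0573 in vehicle. That of Kcnj9 to Kcnj6 was 2.28, 1.64 and 2.47 in CerM, against 6.63, 2.04 and 1.86 in vehicle. In each of these 3 ratios vehicle replicate 1 was the highest library and vehicle replicates 2 and 3 lay within the range of CerM. Vehicle replicate 1 was already the highest library for each numerator and the lowest for each denominator. Its place was thus fixed by the choice of pairs and adds nothing to the values of the single genes. A ratio within a library does not depend on a single factor that scales the whole library, though quantile scaling can change it. In all 7 pairs were computed. Vehicle replicate 1 was also the highest for Kcna2 to Kcna1, at 3.23 against 1.06 to 1.74 in the others, and for Kcnh7 to Kcnh2, at 0.714 against 0.22 to 0.326. Its place there was likewise fixed by the single genes. Vehicle replicate 1 lay within the others for Kcnk1 to Kcnk2, at 2.14 against 2.06 to 2.74. It was the lowest for Kcnj10 to Kcnj16, at 5.05 against 6.08 to 7.1 in the others.

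**Figure D4:**
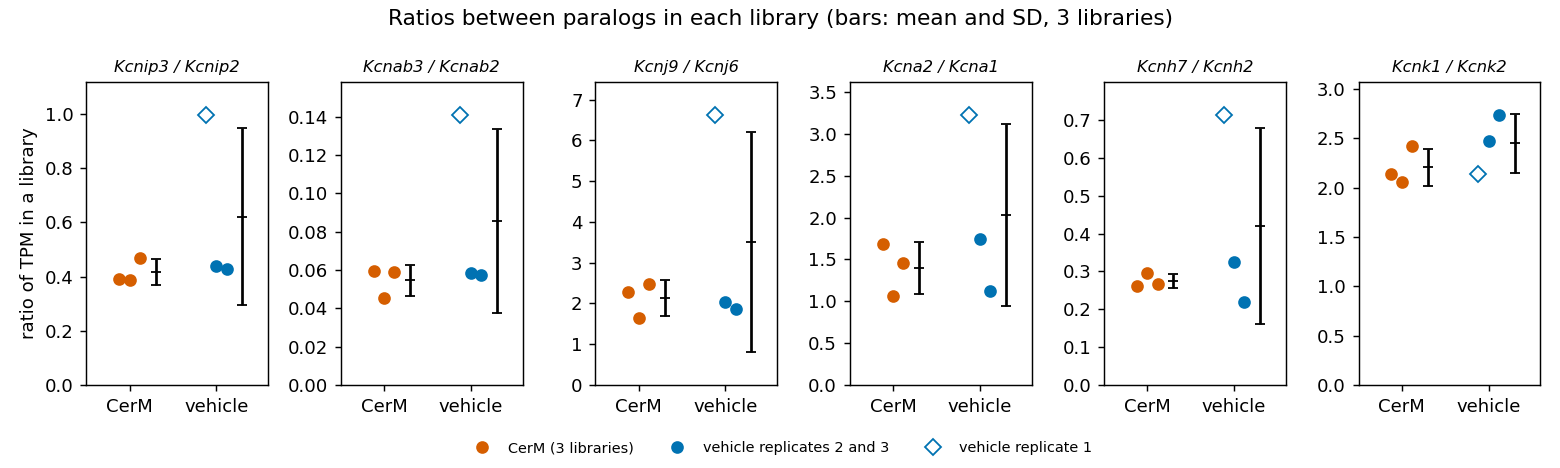
Ratio of TPM between paralogs in each library (vertical axes from 0), CerM in orange and vehicle in blue with replicate 1 as an open diamond, and mean ± SD over 3 libraries as a bar. Vehicle replicate 1 lies above the other 5 libraries in the first 5 panels, as with 0.997 for Kcnip3 over Kcnip2. The pair Kcnj10 over Kcnj16, in which vehicle replicate 1 was the lowest library, is not drawn.

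Markers of other tissue and cell types moved in the same library. The 9 neocortex markers, none listed at 0, summed to 131 to 142 TPM in CerM and 124 to 299 TPM in vehicle, and vehicle replicate 1, at 299 TPM, was the highest library for 8 of the 9. The 7 dentate granule cell markers summed to 118 to 142 TPM in CerM and 71.2 to 134 TPM in vehicle, and all 7 were lowest in vehicle replicate 1. The 8 oligodendrocyte markers summed to 6235 to 7192 TPM in CerM and 3950 to 6863 TPM in vehicle, again all lowest in that library. No marker of these lists was listed at 0. Over all tested genes vehicle replicate 1 was the highest library for 16.9% and the lowest for 32.6%. It was also the lowest for 5 of the 7 CA3, 5 of the 8 astrocyte and 4 of the 6 endothelial markers (the highest for 0, 1 and 0). Of the 8 microglia markers it was the lowest for 1 and the highest for 1. The 10 interneuron markers summed to 1583 to 1914 TPM in CerM and 1763 to 2005 TPM in vehicle, and vehicle replicate 1 was the highest library for 6 of the 10 and the lowest for 1. Choroid plexus markers summed to 309 to 10968 TPM in CerM and 254 to 15741 TPM in vehicle, high in CerM replicates 1 and 3 and vehicle replicate 3. The part of any of these in the channel values was not tested.

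Without vehicle replicate 1, 65 members passed the TPM minimum, and 22 of them (33.8%) changed the sign of their fold change, beside 21.9% of all tested genes. The median size of the fold change was then 0.0717 for the members and 0.0874 for all tested genes. Among those 65, Kcnj2 alone had an unadjusted limma p below 0.05, beside 1.8% of all genes tested without that library, and no member was called. The median coefficient of variation over libraries went down to 8.37% without that library, against 22.4% with all 6, for the modifiers, and to 8.75% against 16.7% for the auxiliary subunits. For K2P it was 15.2% against 18.9%, for Kir 8.98% against 12.3%, for Kv pores 14.8% against 16.1%, for calcium- and sodium-activated channels 12.9% against 13.3%, and for all tested genes 12.9% against 14.6%. The library left out here is the one seen to lie apart.

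**Figure D5:**
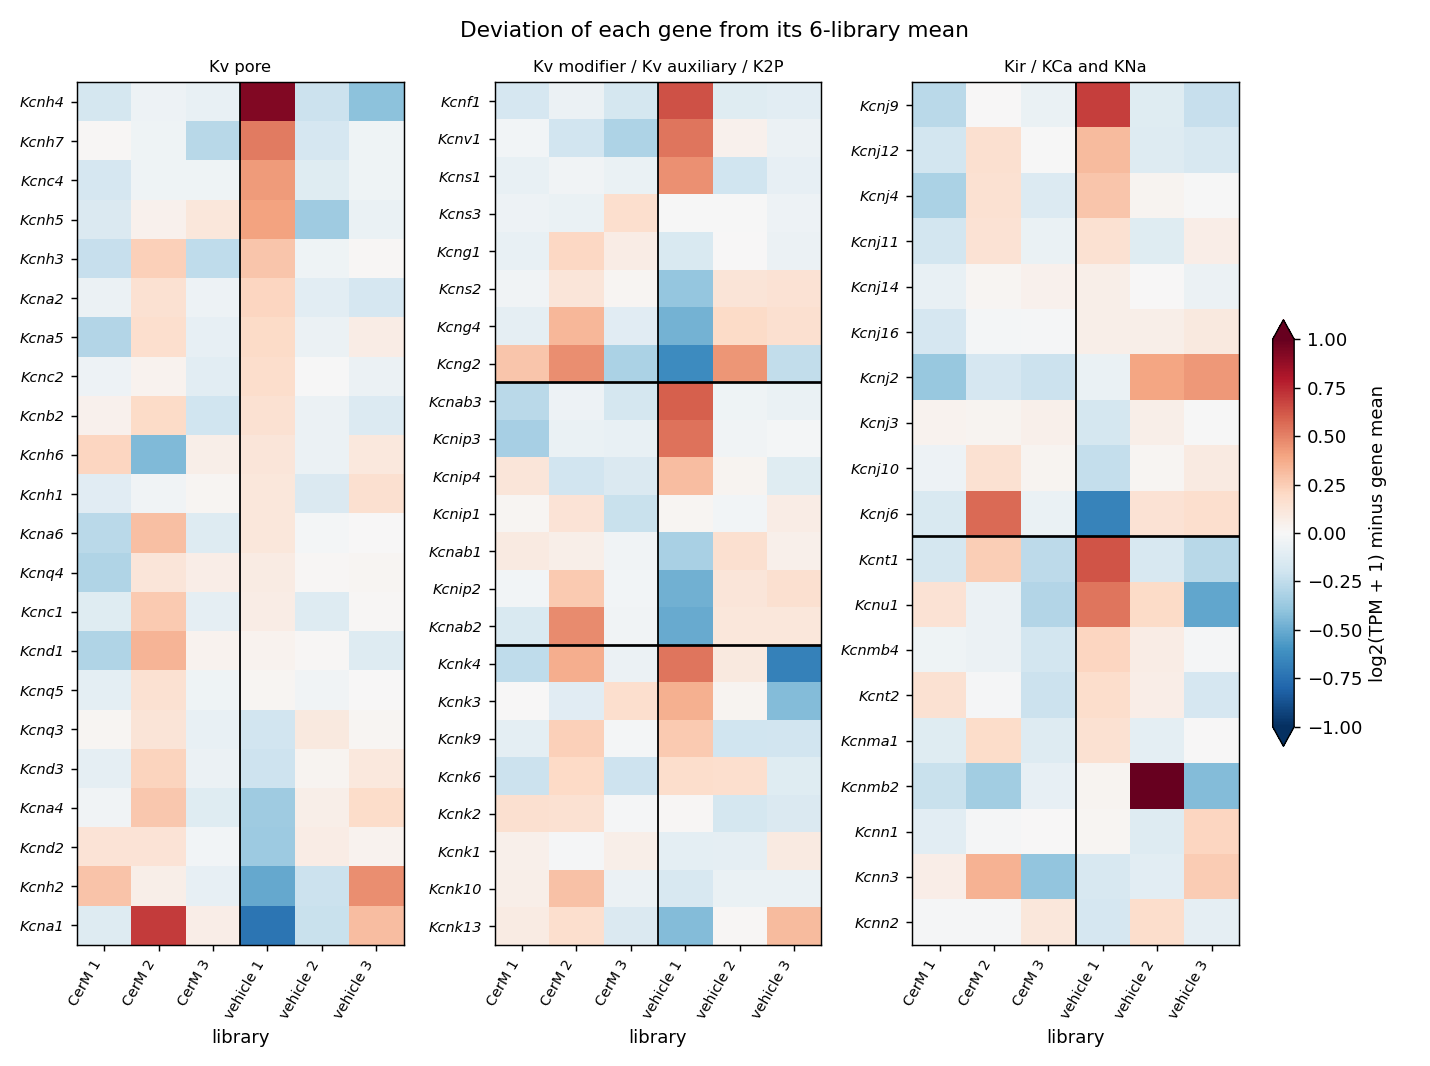
Deviation of log2(TPM + 1) of 64 tested members (rows, by class, ordered by the deviation of vehicle replicate 1) from its mean over 6 libraries (columns, CerM left of the line), from −1 in blue to 1 in red, with values beyond drawn at the end colours. The column of vehicle replicate 1 is the most coloured, red for Kcnh4 and Kcnj9 and blue for Kcna1 and Kcnj6.

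No partner gene of these channels was called either. Of 26 partner genes (such as the Kv4 partners Dpp6 and Dpp10, the BK gamma subunits and the KCTD proteins that bind GABA-B receptors), 24 were tested, 0 were called by limma, 0 had an unadjusted p below 0.05, 14 lay above 0 and the median was 0.02. Vehicle replicate 1 was the highest library for 8 of the 26 and the lowest for 7, beside 16.9% and 32.6% of all tested genes. CerM replicate 2 was the highest for 14 and the lowest for 1, beside 40.9% and 8.49% of all tested genes. The smallest p belonged to Kctd12, at 43.0, 40.9 and 36.4 TPM in CerM, against 24.2, 39.1 and 39.2 TPM in vehicle. Its log2 fold change was 0.25 (−0.19 to 0.70) and 0.03 without vehicle replicate 1. Kctd8 had 2.49, 3.07 and 2.25 TPM in CerM, against 4.62, 2.58 and 2.74 TPM in vehicle. Cntnap1, a protein of the axonal paranode, had 60.3 ± 13.3 and 51.7 ± 5.91 TPM, and Rgs7, which speeds GIRK closing, 60.4 ± 1.71 and 66.6 ± 9.19. Dpp10, named after its values were seen, had 20.3, 19.5 and 16.7 TPM in CerM, against 48.2, 14.7 and 15.2 TPM in vehicle. Of the 4 HCN genes, the pacemaker channels related to Kv channels, 3 were tested, 0 were called and all 3 lay above 0 (median 0.05).

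In GENCODE M21 (GRCm38), 24 of the 67 tested members have exons of another gene over their own, mostly on the opposite strand. Examples are Kcnh3 with Mcrs1, Kcnab3 with Kcnab3os and Kcnd3 with Kcnd3os. The share over all tested genes was not computed. The deposited values were made on GRCm39, whose annotation may differ. Whether reads were counted by strand is not given in the sources used here, so reads of such pairs may not be told apart. Kcnab2 with Gm16334 and Kcnk4 with Catsperz overlap on the same strand, where counting by strand would not separate them.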

How the data were processed

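Per the labels' protocols, TRIzol-extracted hippocampal RNA was cleared of DNA with DNase I, and a TruSeq kit of Illumina was used for the libraries. The submitters' processing notes name HISAT2, StringTie, RSEM and the GRCm39 build, without versions or the role of each. The authors deposited TPM values with 2 decimals for 55414 genes, which total 993379 to 995403 TPM in the 6 libraries. Depth is unknown.

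Genes with a mean of at least 1 TPM (14916) were tested with limma 3.58.1 in R 4.3.3 on log2(TPM + 1), with a variance trend and no covariate, and called at a Benjamini-Hochberg adjusted p below 0.05. Lists are described by counts and medians. The fit was also run on simulated data with known changes, and no result given here rests on that run. Members, classes and lists were chosen with earlier results of these data known. Named genes are, per class, the 3 highest and the one with the smallest p, then members whose groups do not overlap or with an unadjusted p below 0.05, members chosen by role, and the 4 partner genes with the smallest p. Kcnab3, Kcng2, Kcnh2, Kcnh4, Kcnmb2, Kcnu1 and Dpp10 fall outside this rule and were named after their values were seen. A few members are counted but not reported here by name. Alternatives were a pseudocount of 0.1 or 0.5, no TPM minimum or one of 5, quantile, median-ratio and non-mitochondrial scaling, no trend, sample weights, a replicate block, and 1 library left out. Figures were drawn with matplotlib 3.10.9.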

Additional observations from a re-analysis of the deposited data

How the results depend on the processing

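No potassium channel gene was called by limma in any of the 16 alternative settings, and the smallest adjusted p of a member was 0.214, with sample weights. Over all genes the count called ran from 1 to 8 with a library left out and was 0 otherwise. Members at an unadjusted p below 0.05 numbered 0 with a TPM minimum of 5 and 5 with sample weights (18.1% of all tested genes), and 0 to 3 with a library left out. Members with groups that did not overlap numbered 3 of 51 with the TPM minimum of 5 (7.37% of all tested genes) and 8 to 14 with a library left out. The titles do not say whether samples of equal number were paired. Correlations of deviations were 0.00832, 0.196 and 0.222 for numbers 1, 2 and 3. Vehicle replicates 2 and 3 correlated best with the CerM replicate of their number, and vehicle replicate 1 with CerM replicate 2 (0.0651). With the replicate block 2 members had an unadjusted p below 0.05 (3.33% of all tested genes).

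Leaving out a library moved the median of all members from −0.0835 to 0.0444, of Kv auxiliary subunits from −0.0835 to 0.0546 and of K2P from 0.0435 to 0.191. The median of all members was −0.0678 under quantile scaling (0.000124 over all tested genes) and −0.057 with sample weights (−0.00944). The Kv pore median was −0.0678 and −0.0175 under the same settings. The modifier median was −0.0281 under quantile scaling and −0.0866 with sample weights. Under quantile scaling the log2 fold change turned to −0.0191 for Kcnk4, −0.0178 for Kcnq5, −0.00363 for Kcnk9 and −0.0805 for Kcnn3. Under median-ratio scaling it turned to −0.00393 for Kcnc1, −0.00252 for Kcnk4, −0.00186 for Kcna2, −0.0284 for Kcnq5 and −0.0166 for Kcnn3. With sample weights it turned to −0.0831 for Kcnab2, −0.0805 for Kcnip2, −0.116 for Kcnab1, −0.12 for Kcnk4, −0.0588 for Kcnn2, −0.00807 for Kcnd2, −0.0993 for Kcnq3, −0.0111 for Kcnq5, −0.115 for Kcnj6, −0.126 for Kcnn3, 0.00946 for Kcnj11 and 0.06 for Kcnn1. The cause was not tested.

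With each library left out in turn, these genes changed sign, with lowest and highest log2 fold changes of −0.0907 and 0.101 for Kcnc1, −0.0164 and 0.314 for Kcnab2, −0.0689 and 0.251 for Kcnip2, −0.0717 and 0.173 for Kcnab1, −0.00741 and 0.157 for Kcnj10, −0.297 and 0.306 for Kcnk4, −0.012 and 0.161 for Kcnn2, −0.147 and 0.0227 for Kcnma1, −0.0419 and 0.15 for Kcna2, −0.124 and 0.0546 for Kcnip1, −0.0317 and 0.113 for Kcnq3, −0.0679 and 0.0571 for Kcnq5, −0.0384 and 0.377 for Kcnj6, −0.396 and 0.0678 for Kcnj9, −0.158 and 0.00509 for Kcnj11, −0.017 and 0.236 for Kcnk9, −0.156 and 0.0152 for Kcnn1, −0.156 and 0.212 for Kcnn3 and −0.295 and 0.154 for Kcnt1. TPM carries no depth, so no limit from read counts can be given. The confidence intervals hold gene by gene and are not adjusted for the number of genes. They measure no more than the spread among these libraries, which may be technical, so no difference between the treatments is taken as excluded.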
